A study of Mus musculus with 200 samples.

Results

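The chemokine ligands comprised 38 of the 38406 genes in the count table of 200 single medullary thymic epithelial cells. They were taken by name: every symbol made of Ccl and a number, with or without a final letter, every symbol made of Cxcl and a number, and Xcl1 and Cx3cl1. Family members with other names, such as Pf4, fell outside this rule. Of the 38 ligands, 32 had at least 1 count, 30 at least 10 and 21 at least 100. The 6 ligands without a count were Ccl4, Ccl21b, Ccl21c, Ccl26, Ccl27b and Xcl1. A count of 0 over all cells allows a level of up to 0.283 counts per 1000000, by the limit of 3 counts.

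All cells came from thymi of female B6xNOD mice aged 5 weeks that carried the Aire-GFP transgene, wild-type and knockout alike. Cells were sorted as CD45-, Ly51-, MHCII+ and GFPhi or GFPlo; GFP from this transgene serves as a marker of Aire expression. The 4 groups were WT_GFPhi (wild-type Aire, high GFP, 61 cells), WT_GFPlo (wild-type, low GFP, 39 cells), KO_GFPhi (Aire knockout, high GFP, 48 cells) and KO_GFPlo (Aire knockout, low GFP, 52 cells). Cells were sorted on 2 dates (72 and 128 cells) into 12 library pools, 6 a date. No animal is named in the labels, so cells of a group may share an animal; each group counted as 1 sample and no difference was tested. Levels are counts per 1000000 counts of the group (CPM), with 95% exact Poisson intervals that cover counting error of tags only. A ligand was called past 2-fold where a pair of groups held at least 10 of its counts and the levels differed at least 2-fold with 0.5 count added to each sum, as in all log2 ratios. Intervals of folds are exact and cover counting error only. Values without the leading cell, or without a library pool, are given where they end a call, turn its direction or move the ratio by over 1.5 times. Counts were not divided by gene length, because RNA was copied from its poly(A) end, so an order among ligands is an order of counts. Whether identifiers were collapsed is not given in the sources used here, so counts are treated as sequenced tags.

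Chemokines are small secreted proteins that guide cells along gradients by way of receptors coupled to G proteins. In the thymic medulla they bring positively selected thymocytes in from the cortex and attract dendritic cells. Ccl19 and Ccl21a signal through Ccr7, Ccl25 through Ccr9, Ccl17 and Ccl22 through Ccr4, Ccl20 through Ccr6, and Cxcl9, Cxcl10 and Cxcl11 through Cxcr3. Many chemokine genes are induced by interferons or by NF-kappaB, the factor downstream of the receptors that drive medullary epithelial maturation.

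Promoter sequence is shown for Ccl19 and Cxcl10, the ligands found in most cells, and for Cxcl9, the Cxcr3 ligand that differed most between knockout and wild type. Each line gives the 250 bases before the annotated start, 5′ to 3′ on the gene's strand, from RefSeq on GRCm38.p6, the build the submitters' processing notes name as mm10. Gene positions further on are from GENCODE M21 on the same build, whose starts can differ from those of RefSeq. Capitals mark the core of the interferon-stimulated response element (GAAA, any 2 bases, GAAA), the kappaB consensus and TATAAA, each searched on both strands, with overlapping matches counted.
Ccl19 (chr4:42756366-42756615, minus strand): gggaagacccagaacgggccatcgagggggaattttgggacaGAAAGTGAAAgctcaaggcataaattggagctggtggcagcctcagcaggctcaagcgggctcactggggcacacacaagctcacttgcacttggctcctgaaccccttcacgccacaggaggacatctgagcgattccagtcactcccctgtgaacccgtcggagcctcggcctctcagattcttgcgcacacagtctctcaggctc
Cxcl10 (chr5:92348890-92349139, minus strand): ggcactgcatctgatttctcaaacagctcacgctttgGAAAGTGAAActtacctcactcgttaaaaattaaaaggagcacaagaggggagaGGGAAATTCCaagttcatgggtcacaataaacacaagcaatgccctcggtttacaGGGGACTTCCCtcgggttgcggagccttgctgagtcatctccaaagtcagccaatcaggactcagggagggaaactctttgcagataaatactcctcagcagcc
Cxcl9 (chr5:92328080-92328329, minus strand): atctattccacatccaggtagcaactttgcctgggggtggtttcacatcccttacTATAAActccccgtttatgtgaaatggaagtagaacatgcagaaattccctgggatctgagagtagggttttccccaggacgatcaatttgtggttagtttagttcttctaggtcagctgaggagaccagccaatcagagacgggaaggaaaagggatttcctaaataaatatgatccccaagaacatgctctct
Of the 38 ligands, 26 had a promoter in the table, each with 250 bases before and 50 after the start. The interferon-stimulated core was found in 3 of these 26, namely Ccl19, Cxcl10 and Cxcl14, and in 3.45% of all 32544 promoters. GENCODE M21 places the Ccl19 start further upstream, at 42756577, so by that annotation most of the Ccl19 stretch, with its core, lies inside the gene. The kappaB consensus was found in 8 ligands (Ccl1, Ccl9, Ccl20, Ccl27a, Cxcl1, Cxcl2, Cxcl3 and Cxcl10) and in 8.49% of all promoters. TATAAA was found in 9 ligands and in 13.6% of all promoters. A ligand was counted where any of its promoters matched, while the shares over all are per promoter, and Ccl25, Ccl27a and Ccl27b had 2, 3 and 4 promoters. The kappaB match of Ccl27a lay 31 bases after the start of 1 of its 3 promoters.

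Cxcl1, Cxcl2 and Cxcl3, neighbours on chromosome 5 that attract neutrophils, carried the same kappaB match. Their stretches from 110 to 51 bases before the start are shown because these ligands are compared side by side further on.
Cxcl1 (chr5:90891135-90891194, plus strand): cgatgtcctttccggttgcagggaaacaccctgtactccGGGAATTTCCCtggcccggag
Cxcl2 (chr5:90903789-90903848, plus strand): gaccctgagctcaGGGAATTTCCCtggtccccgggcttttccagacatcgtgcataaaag
Cxcl3 (chr5:90785991-90786050, plus strand): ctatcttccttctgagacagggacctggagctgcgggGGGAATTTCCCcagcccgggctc
The match began 71 bases before the start of Cxcl1, 97 before that of Cxcl2 and 73 before that of Cxcl3. A match is a description of the sequence and not a measured site.

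Every one of the 200 cells had a count of at least 1 chemokine ligand. With cells thinned to 10000 counts each, the median number of ligands per cell was 6 in WT_GFPhi, 7 in WT_GFPlo, 5 in KO_GFPhi and 5 in KO_GFPlo, over 55, 32, 44 and 48 cells deep enough to keep. Without thinning the medians were 8, 9, 8 and 7. Ccl19 gave the most ligand counts in 82 cells and Cxcl10 in 42, so these ligands led in most cells. Ccl25 led in 11 cells, Ccl5 in 10 and Ccl22 in 9, of which 8 were KO_GFPlo.

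The summed level of all ligands was 5268 CPM (5192 to 5345) in WT_GFPhi, 5062 (4969 to 5155) in WT_GFPlo, 3592 (3525 to 3661) in KO_GFPhi and 3634 (3548 to 3722) in KO_GFPlo. The median over cells was closer, at 2696, 3090, 2619 and 2670 CPM in the same order. In wild type the sums thus stood far above the median cell, and single cells reached 39860 CPM in WT_GFPhi and 24769 in WT_GFPlo, against 14176 in KO_GFPhi and 10475 in KO_GFPlo.

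**Figure D1:**
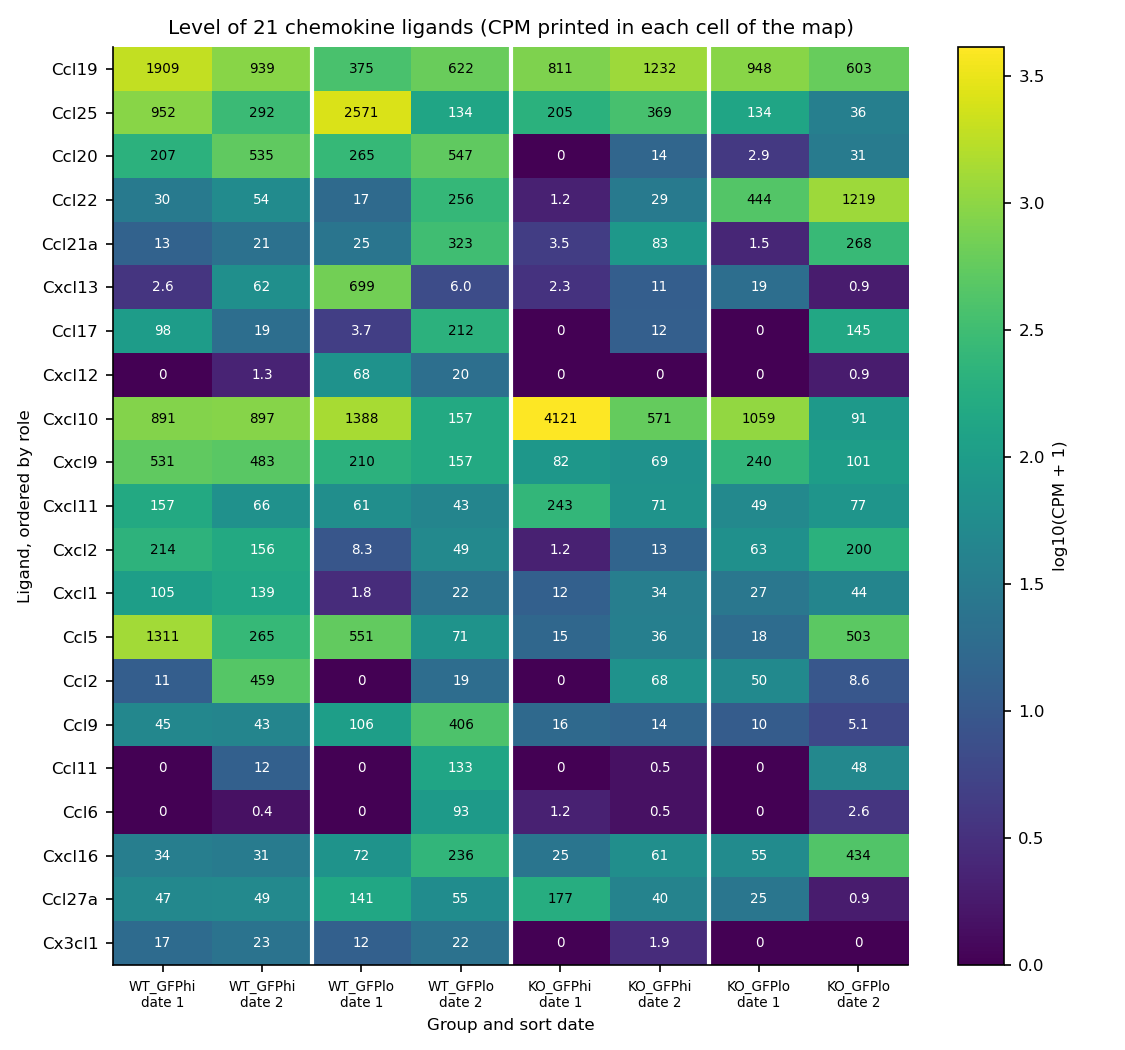
Level of the 21 chemokine ligands with at least 100 counts (rows, ordered by role) in each group and sort date (columns). Colour gives log10(CPM + 1) and the printed number is the CPM; Cxcl10 reached 4121 CPM in KO_GFPhi cells of the first date, and Ccl20 stayed at or below 30.8 CPM in the 4 knockout columns.

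The labels were checked against marker lists. The 16 genes of the medullary epithelial list summed to between 17733 and 25020 CPM in the 4 groups, and each of them had a count in every group. Aire was counted in all groups, at 537 CPM in WT_GFPhi, 244 in WT_GFPlo, 815 in KO_GFPhi and 316 in KO_GFPlo; whether the counted end of the transcript lies in the deleted part is not given in the sources used here, so this level does not check the knockout. Although CD45+ cells were sorted out, 40 cells held more counts of the 30-gene leukocyte list than of the 12-gene epithelial list and are called leukocyte-marked below. They were 14 of the 61 WT_GFPhi cells, 8 of the 39 WT_GFPlo, 2 of the 48 KO_GFPhi and 16 of the 52 KO_GFPlo, and held 24.3% of all counts. The B and plasma cell list summed to 5808, 13187, 191 and 1449 CPM in the 4 groups in the same order, and the granulocyte list to 1441, 508, 55.4 and 124. Without leukocyte-marked cells the B and plasma cell list summed to 554, 194, 162 and 477 CPM. WT_GFPlo replicate 36 alone held 24515 counts of the leukocyte list, which includes the B and plasma cell genes. Most granulocyte list counts of WT_GFPhi were of S100a8 (4328) and S100a9 (611). Total counts per cell ran from 2429 to 370365, with a median of 29106.5.

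Ccl19, the Ccr7 ligand on chromosome 4 (42754525 to 42756577, minus strand), was the most widely counted ligand, in 189 cells. Its level was 1266 CPM (1228 to 1304) in WT_GFPhi, 503 (474 to 533) in WT_GFPlo, 1113 (1075 to 1151) in KO_GFPhi and 730 (691 to 770) in KO_GFPlo. Without leukocyte-marked cells the levels were 1666, 648, 1120 and 1134 CPM in the same order. KO_GFPhi then stood at 0.988 of KO_GFPlo (0.926 to 1.06), and KO_GFPlo at 1.75 times WT_GFPlo (1.61 to 1.90). Per cell, the lowest, median and highest levels were 0, 855 and 5615 CPM in WT_GFPhi, 0, 327 and 8246 in WT_GFPlo, 34.4, 977 and 5402 in KO_GFPhi, and 0, 470 and 3501 in KO_GFPlo. The cells of all groups overlapped, with both GFPhi medians above both GFPlo medians. In thinned cells Ccl19 was counted in 90.9%, 78.1%, 97.7% and 81.2% of cells in the same order of groups.

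Among GFPhi cells Ccl19 stood at 0.879 of the wild-type level in knockout cells (0.840 to 0.920), with the order of genotypes opposite on the 2 dates: 1909 and 939 CPM in WT_GFPhi against 811 and 1232 in KO_GFPhi. In wild type Ccl19 was 2.52-fold higher in GFPhi than in GFPlo cells (2.36 to 2.69), a log2 ratio of 1.33 that was 0.59 on the second date, 0.98 without library pool 5 and 1.05 without WT_GFPhi replicate 16, a cell of that pool with 977 of the Ccl19 counts. As a mean of per-cell levels this log2 ratio was 0.77, within 2-fold.

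Ccl21a, the other Ccr7 ligand (chromosome 4, 42772860 to 42773993, minus strand), was counted in 87 cells; its near-identical copies Ccl21b and Ccl21c are listed at 0, so reads of the copies may have been assigned elsewhere and its level is uncertain. It stood at 18.5 CPM (14.2 to 23.6) in WT_GFPhi, 180 (163 to 198) in WT_GFPlo, 60.4 (52 to 69.9) in KO_GFPhi and 170 (152 to 190) in KO_GFPlo. Medians over cells were 0, 23.3, 0 and 0 CPM, and the highest cells had 382, 1344, 951 and 2063 CPM. The level was 9.73-fold lower in GFPhi than in GFPlo cells of wild type (7.46 to 12.9) and 2.81-fold lower in knockout (2.34 to 3.40). In 3 groups most of it came from the second date, with 24.8 and 323 CPM on the first and second date in WT_GFPlo, 1.47 and 268 in KO_GFPlo, and 3.52 and 82.9 in KO_GFPhi. In wild type the log2 ratio of GFPhi to GFPlo was -3.27 over both dates, -0.93 on the first, within 2-fold, and -3.91 on the second. In knockout the log2 ratio of GFPhi to GFPlo was -1.49 over both dates and 0.89 on the first, where the pair held under 10 counts, and it was -0.66 without pool 11. KO_GFPhi exceeded WT_GFPhi by 3.27-fold (2.45 to 4.42), a log2 ratio of 1.70 that was -1.69 on the first date.

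The Cxcr3 ligands Cxcl9, Cxcl10 and Cxcl11 lie side by side on chromosome 5 and attract activated T cells. Cxcl10 (92346638 to 92348889, minus strand) had more counts than any other ligand, 10368 in 168 cells. It stood at 895 CPM (864 to 927) in WT_GFPhi, 749 (714 to 786) in WT_GFPlo, 1576 (1531 to 1621) in KO_GFPhi and 446 (416 to 478) in KO_GFPlo. Per cell, the lowest, median and highest levels were 0, 527 and 5680 CPM in WT_GFPhi, 0, 125 and 4934 in WT_GFPlo, 0, 467 and 12310 in KO_GFPhi, and 0, 121 and 7845 in KO_GFPlo. GFPhi medians again stood above GFPlo medians, and medians of the same gate were close between genotypes.

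Cxcl10 differed between sort dates. Levels on the first and second date were 891 and 897 CPM in WT_GFPhi, 1388 and 157 in WT_GFPlo, 4121 and 571 in KO_GFPhi, and 1059 and 90.7 in KO_GFPlo. Among GFPhi cells the knockout level was 4.63-fold higher on the first date (4.32 to 4.96) and 1.57-fold lower on the second, and over both dates it stayed within 2-fold. On the first date KO_GFPhi comprised 9 cells, and 3 of them held 80.6% of the counts; the other 6 cells together stood at 1523 CPM. In knockout Cxcl10 was 3.53-fold higher in GFPhi than in GFPlo cells (3.28 to 3.81), with 3.89-fold on the first date and 6.30-fold on the second. This log2 ratio of 1.82 was 1.25 without leukocyte-marked cells, where KO_GFPhi stood at 1614 CPM and KO_GFPlo at 680. The 22 interferon-stimulated genes of a list of response genes were summed over the same cells. They stood at 753 and 984 CPM in KO_GFPhi on the first and second date, 918 over both, and at 1266, 1960 and 1647 in WT_GFPhi, WT_GFPlo and KO_GFPlo.

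Cxcl9 (chromosome 5, 92321347 to 92328079, minus strand) was counted in 141 cells. It stood at 499 CPM (476 to 523) in WT_GFPhi, 183 (165 to 201) in WT_GFPlo, 72.4 (63.1 to 82.7) in KO_GFPhi and 152 (135 to 171) in KO_GFPlo. Per cell, the lowest, median and highest levels were 0, 125 and 8945 CPM in WT_GFPhi, 0, 69.8 and 1661 in WT_GFPlo, 0, 30.3 and 657 in KO_GFPhi, and 0, 44.9 and 1305 in KO_GFPlo. WT_GFPhi cells reached far higher than KO_GFPhi cells, though cells at 0 occurred in all groups.

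Among GFPhi cells Cxcl9 was 6.90-fold lower in knockout than in wild type (5.99 to 7.98), 6.47-fold on the first date and 7.04-fold on the second. The log2 ratio was -2.78, and -2.55 without WT_GFPhi replicate 4, the cell with most counts, and -3.20 without leukocyte-marked cells. In thinned cells the share with a count was 67.3% (53.3 to 79.3) in WT_GFPhi and 40.9% (26.3 to 56.8) in KO_GFPhi. Cxcl9 gave 35.8% (34.4 to 37.2) of the Cxcl9 and Cxcl10 counts in WT_GFPhi and 4.39% (3.84 to 5.00) in KO_GFPhi. On the first and second date these shares were 37.4% and 35% in WT_GFPhi, and 1.95% and 10.7% in KO_GFPhi. Among GFPlo cells the knockout level was within 2-fold of wild type, with a ratio of 0.833 (0.713 to 0.971).

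Cxcl9 was 2.73-fold higher in GFPhi than in GFPlo cells of wild type (2.45 to 3.05), on each date, and 2.10-fold lower in GFPhi than in GFPlo cells of knockout (1.75 to 2.52). The latter log2 ratio of -1.07 was -0.94 without pool 3, -0.74 without pool 5, -0.95 without pool 11, -0.71 without the cell with most counts and -0.56 on the second date. Cxcl11 (92359544 to 92365485, minus strand; a polymorphic pseudogene in GENCODE M21) stood at 96.3, 51.3, 120 and 66.6 CPM in WT_GFPhi, WT_GFPlo, KO_GFPhi and KO_GFPlo and was past 2-fold in none of the 4 comparisons. In thinned cells Cxcl10 was counted in 87.0% of the 54 cells with Cxcl11 and in 67.2% of the rest, and in 84.0% of the 94 cells with Cxcl9 and 61.2% of the rest.

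**Figure D2:**
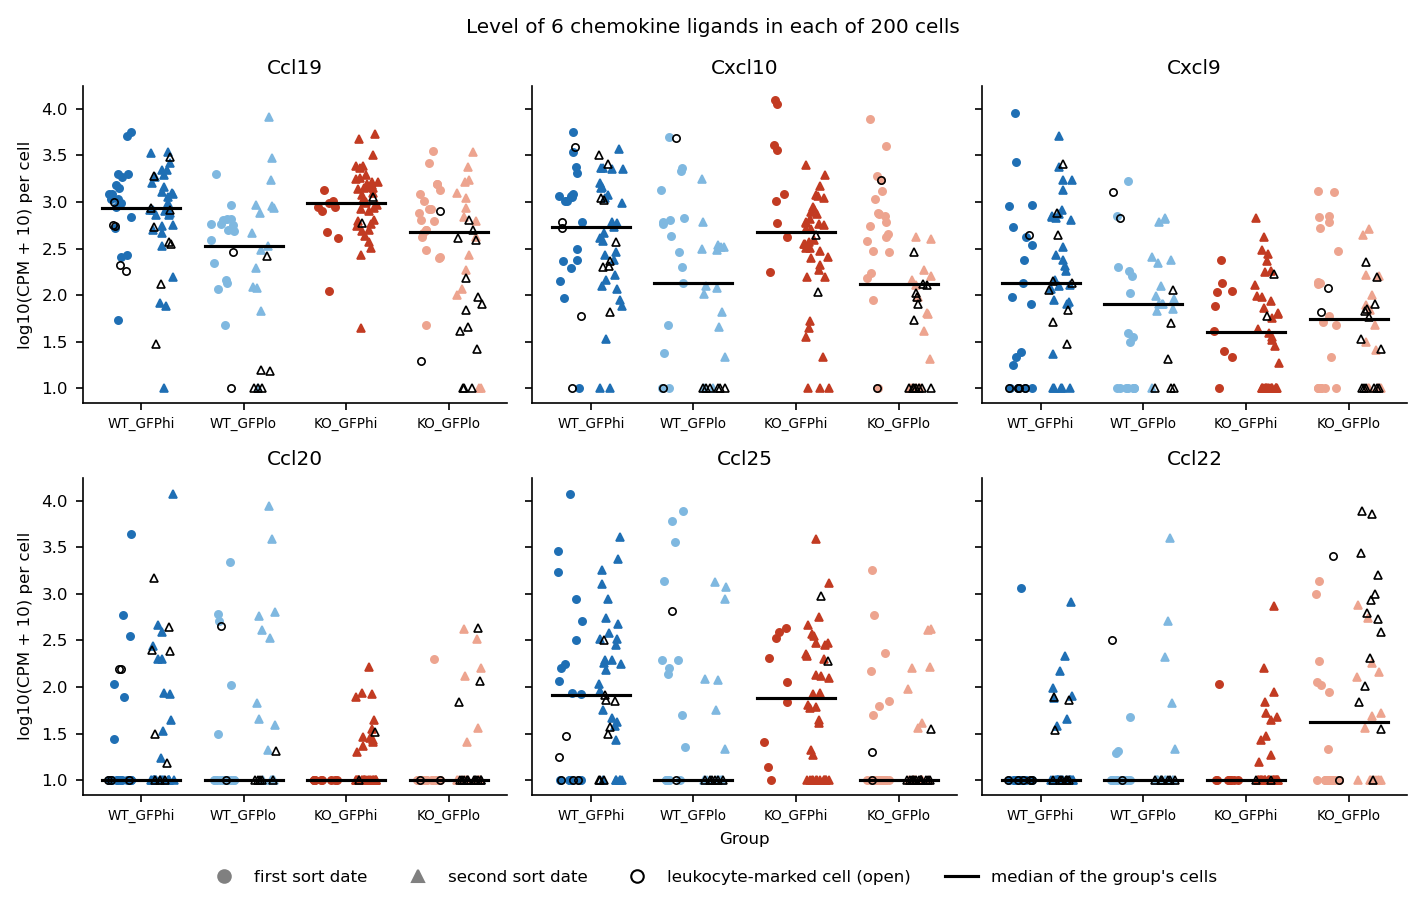
Level of 6 ligands in each of the 200 cells, as log10(CPM + 10) by group; circles are cells of the first sort date, triangles of the second, open symbols leukocyte-marked cells, and black lines group medians. The median of Ccl19 is highest in both GFPhi groups, Cxcl9 cells of KO_GFPhi stay at or below 657 CPM, and the highest Ccl22 cells of KO_GFPlo are open.

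Ccl25, the Ccr9 ligand (chromosome 8, 4325210 to 4360020, plus strand), was counted in 110 cells. It stood at 514 CPM (491 to 539) in WT_GFPhi, 1307 (1260 to 1355) in WT_GFPlo, 322 (302 to 343) in KO_GFPhi and 72.0 (60.3 to 85.3) in KO_GFPlo. Medians over cells were 72.7, 0, 66.3 and 0 CPM, and the highest cells had 11657, 7772, 3842 and 1794 CPM. One cell, WT_GFPlo replicate 9, held 2389 of the counts, which is 80.8% of those in its group. In thinned cells 58.2% of WT_GFPhi, 40.6% of WT_GFPlo, 54.5% of KO_GFPhi and 22.9% of KO_GFPlo cells had a count.

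Among GFPlo cells Ccl25 was 18.2-fold lower in knockout than in wild type (15.3 to 21.8), a log2 ratio of -4.18 that was -2.00 without that cell, -2.47 without its pool 4 and -1.89 on the second date. Among GFPhi cells the genotypes were within 2-fold, at a log2 ratio of -0.67, with -2.21 on the first date and 0.34 on the second. In knockout Ccl25 was 4.48-fold higher in GFPhi than in GFPlo cells (3.73 to 5.41), with log2 ratios of 2.16 over both dates, 0.61 on the first and 3.34 on the second, and 2.76 without pool 4. In wild type the order was opposite, with a log2 ratio of -1.35, which was 0.83 without replicate 9, 0.60 without pool 4 and 1.12 on the second date.

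Ccl20, the Ccr6 ligand (chromosome 1, 83116766 to 83119167, plus strand), was lower in knockout than in wild type in both gates. It stood at 425 CPM (403 to 447) in WT_GFPhi, 411 (385 to 438) in WT_GFPlo, 10.3 (6.99 to 14.6) in KO_GFPhi and 20.6 (14.6 to 28.2) in KO_GFPlo. The median cell was at 0 in all groups, and the highest cells had 11720, 8793, 154 and 423 CPM. Cells with high levels were thus found in wild type, while most cells of every group had no count.

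Among GFPhi cells Ccl20 was 41.3-fold lower in knockout (28.9 to 61), at least 58.9-fold on the first date, where KO_GFPhi had no count, and 37.3-fold on the second. Among GFPlo cells it was 20-fold lower (14.4 to 28.4), 89.7-fold on the first date and 17.8-fold on the second. In thinned cells 36.4% of WT_GFPhi (23.8 to 50.4) and 34.4% of WT_GFPlo cells (18.6 to 53.2) had a count, against 11.4% (3.79 to 24.6) and 14.6% (6.07 to 27.8) in knockout. The log2 ratio of -5.34 in GFPhi was -4.06 without WT_GFPhi replicate 60, which held 882 of the counts, and -1.74 with ls primers alone. In GFPlo the log2 ratio of -4.30 was -3.75 without the leading cell and -4.91 without pool 12. With leukocyte-marked cells left out, Ccl20 had log2 ratios of -5.62 in GFPhi and -4.89 in GFPlo.

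Ccl17 and Ccl22 signal through Ccr4 and lie near each other and Cx3cl1 on chromosome 8. Ccl22 (94745590 to 94751699, plus strand) stood at 45.8 CPM (39 to 53.6) in WT_GFPhi, 141 (126 to 157) in WT_GFPlo, 20.9 (16.1 to 26.8) in KO_GFPhi and 934 (891 to 980) in KO_GFPlo. Medians over cells were 0 CPM except for 32.2 in KO_GFPlo, and the highest cells had 1143, 3980, 731 and 7674 CPM. In thinned cells 52.1% of KO_GFPlo cells had a count (37.2 to 66.7), and 16.4%, 12.5% and 9.09% of the WT_GFPhi, WT_GFPlo and KO_GFPhi cells.

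Ccl22 counts lay in leukocyte-marked cells for 73.7% of their number over all groups. Of the 16 leukocyte-marked KO_GFPlo cells 14 had Ccl22, at 2202 CPM (2096 to 2311), and the other 36 KO_GFPlo cells stood at 86.7 (70.3 to 106). The same 16 cells had 755 CPM (694 to 820) of Ccr7, the receptor that brings mature dendritic cells to Ccl19 and Ccl21a, with a count in 14 of them, and the other 36 cells had 68.7. Leukocyte-marked cells of wild type had little Ccl22, at 23 CPM in WT_GFPhi and 20.8 in WT_GFPlo. Among GFPlo cells Ccl22 was 6.64-fold higher in knockout than in wild type (5.89 to 7.51), a log2 ratio of 2.73 that was -1.06 without leukocyte-marked cells, 2.28 without the leading cell and 5.42 without pool 11. The value of -1.06 rested on WT_GFPlo replicate 32, which held 286 of the 306 counts of WT_GFPlo in that setting. Of the cells left, 41.7% of KO_GFPlo and 25.8% of WT_GFPlo had a Ccl22 count. In GFPhi against GFPlo knockout cells it was 44.7-fold lower (34.7 to 58.4), a log2 ratio of -5.47 that was -2.01 without leukocyte-marked cells.

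In the other comparisons a few cells set the Ccl22 ratio. Its log2 ratio in knockout against wild-type GFPhi cells was -1.13, and -0.36 without the leading cell, -0.78 without pool 2, -0.94 without pool 12 and -0.90 on the second date. In wild-type GFPhi against GFPlo it was -1.62, and 1.63 without WT_GFPlo replicate 32 and 0.51 without its pool 11. Ccl17 (94810453 to 94812036, plus strand) stood at 45.6, 112, 8.30 and 91.5 CPM in WT_GFPhi, WT_GFPlo, KO_GFPhi and KO_GFPlo, with 51.2% of its counts in leukocyte-marked cells. Its knockout level was 5.49-fold lower in GFPhi (3.58 to 8.74), a log2 ratio of -2.43 that was -1.36 without WT_GFPhi replicate 11, -1.12 without pool 4, -4.19 without pool 7 and -0.71 on the second date. In knockout it was 11-fold lower in GFPhi than in GFPlo cells (7.21 to 17.5), at a log2 ratio of -3.44, or -1.09 without leukocyte-marked cells and -5.18 without pool 7. In wild-type GFPhi against GFPlo its log2 ratio was -1.29, and 0.48 without replicate 32 of WT_GFPlo, 0.76 without pool 11, -2.67 without pool 4, -0.94 without pool 10 and 4.57 on the first date. Between knockout and wild-type GFPlo cells its log2 ratio was -0.29 over all cells and -2.64 without leukocyte-marked ones, where 115 CPM in WT_GFPlo and 18.1 in KO_GFPlo made it 6.37-fold lower (4.01 to 10.7). In that setting 1 cell held 93.8% of the 194 Ccl17 counts of WT_GFPlo. In thinned cells Ccl22 was counted in 61.9% of the 21 cells with Ccl17 and in 18.4% of the rest.

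**Figure D3:**
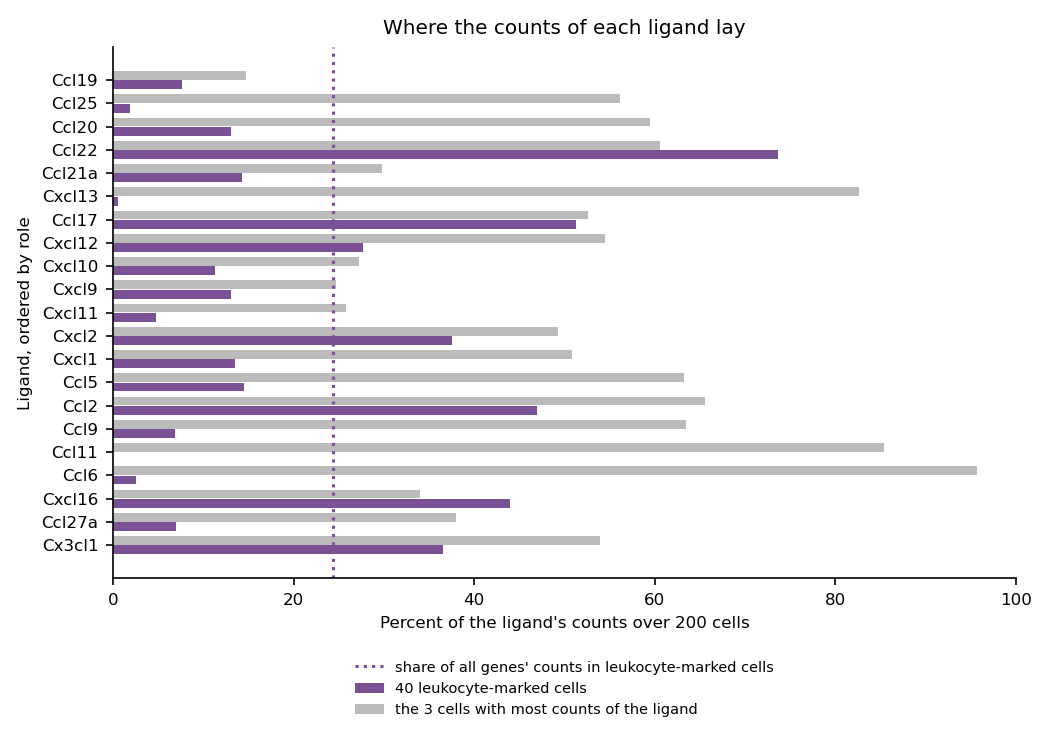
Percent of the counts of each of the 21 ligands that lay in the 40 leukocyte-marked cells (purple) and in the 3 cells with most counts of that ligand (grey); the dotted line at 24.3% is the share of the counts of all genes in leukocyte-marked cells. Ccl22 stands highest in purple at 73.7%, and Ccl19 has the shortest grey bar, at 14.7%.

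Cxcl12 and Cxcl13, the Cxcr4 and Cxcr5 ligands, were found mainly in WT_GFPlo. Cxcl13 (chromosome 5, 95956951 to 95961068, plus strand) stood at 42.1 CPM (35.5 to 49.5) in WT_GFPhi, 340 (316 to 365) in WT_GFPlo, 8.63 (5.64 to 12.6) in KO_GFPhi and 7.58 (4.14 to 12.7) in KO_GFPlo, in 8, 12, 5 and 5 cells. The WT_GFPlo level came from the first date, with 699 and 5.97 CPM on the first and second, and WT_GFPlo replicate 10 alone held 590 counts. Its log2 ratio in knockout against wild type was -5.44 in GFPlo (-3.35 without replicate 10, -4.36 without pool 4) and -2.26 in GFPhi (-1.23 without the leading cell, -1.17 without pool 12, -4.09 without pool 11). In wild-type GFPhi against GFPlo the log2 ratio was -3.01, or -0.92 without replicate 10, -1.04 without pool 4, -3.63 without pool 11, -4.07 without pool 12 and 3.29 on the second date. Cxcl12 (chromosome 6, 117168535 to 117181367, plus strand) had 101 counts, of which 97 lay in 11 WT_GFPlo cells, at 42.9 CPM (34.8 to 52.3). WT_GFPhi had 3 counts, KO_GFPlo 1 and KO_GFPhi 0. Its log2 ratio was -5.73 in knockout against wild-type GFPlo cells and -5.42 in wild-type GFPhi against GFPlo, and -7.18 and -6.45 without pool 12.

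Cxcl1 and Cxcl2, which attract neutrophils through Cxcr2, had their highest level in WT_GFPhi. Cxcl2 (chromosome 5, 90903871 to 90905938, plus strand) stood at 176 CPM (162 to 190) in WT_GFPhi, 29.6 (23 to 37.6) in WT_GFPlo, 9.96 (6.72 to 14.2) in KO_GFPhi and 150 (133 to 169) in KO_GFPlo. Cxcl1 (90891241 to 90893115, plus strand) stood at 127 (116 to 140), 12.4 (8.23 to 17.9), 27.9 (22.2 to 34.5) and 37.4 (29.1 to 47.3). The median cell was at 0 for both ligands in all groups, and the highest WT_GFPhi cell had 7639 CPM of Cxcl2 and 3591 CPM of Cxcl1. In thinned cells Cxcl2 was counted in 45.2% of the 31 cells with Cxcl1 and in 16.2% of the rest. Cxcl3, which shares this kappaB match, had 29 counts in each wild-type group and 0 in each knockout group, and Cxcl5 had 37 of its 40 counts in KO_GFPlo.

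Among GFPhi cells Cxcl2 was 17.7-fold lower in knockout (12.2 to 26.4) and Cxcl1 4.57-fold lower (3.61 to 5.84), both on each date. The log2 ratio of Cxcl2 was -4.12, or -3.44 without WT_GFPhi replicate 4, -3.45 without its pool 2 and -1.44 with ls primers alone. That of Cxcl1 was -2.19, or -1.58 without WT_GFPhi replicate 60 and 1.12 with ls primers alone. Among GFPlo cells both were higher in knockout, Cxcl2 by 5.06-fold (3.86 to 6.71) and Cxcl1 by 3.02-fold (1.92 to 4.86). There the log2 ratio of Cxcl2 was 2.33, or 1.48 without the leading cell, 1.39 without pool 12 and 4.31 without pool 11, and that of Cxcl1 was 1.58, or 1.08 without the leading cell, 2.78 without pool 8 and -0.27 as a mean of per-cell levels. Without leukocyte-marked cells, Cxcl2 stood at 237, 2.37, 10.2 and 34.3 CPM in the 4 groups in the order above. The granulocyte list summed to 1441 CPM in WT_GFPhi against 55.4 in KO_GFPhi. In WT_GFPhi this came mostly from S100a8 and S100a9, with 4328 and 611 counts. Its other genes there were Mpo (36 counts), Ngp (22), Camp (2), Ltf (0) and Elane (0). In WT_GFPlo, Mpo, Camp and Ltf had 84, 60 and 49 counts, and Ngp and Elane 0. The part of this list in these differences was not tested.

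In GFPhi against GFPlo cells of wild type, Cxcl2 was 5.93-fold higher (4.61 to 7.76) and Cxcl1 10.3-fold (7.02 to 15.7). Their log2 ratios were 2.56 for Cxcl2 (1.88 without replicate 4, 1.89 without pool 2, 4.65 without pool 11) and 3.34 for Cxcl1 (2.73 without replicate 60, 2.70 without pool 12, 4.56 without pool 8). With ls primers alone these log2 ratios were -0.84 for Cxcl2 and 0.43 for Cxcl1, both within 2-fold. In knockout Cxcl2 was 15.1-fold lower in GFPhi (10.3 to 22.7), at a log2 ratio of -3.89, or -1.74 without leukocyte-marked cells, -3.04 without the leading cell and -3.05 without pool 12.

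Ccl5, a T cell and monocyte attractant (chromosome 11, 83525778 to 83530518, minus strand), stood at 617 CPM (591 to 643) in WT_GFPhi, 302 (280 to 326) in WT_GFPlo, 29.9 (24 to 36.7) in KO_GFPhi and 325 (299 to 352) in KO_GFPlo. Its share of thinned cells had another order, with 20% of WT_GFPhi, 40.6% of WT_GFPlo, 22.7% of KO_GFPhi and 33.3% of KO_GFPlo cells. WT_GFPhi replicate 16 held 1436 counts, 67.1% of its group, and the highest cells of the groups had 7527, 1978, 881 and 6264 CPM. Among GFPhi cells Ccl5 was 20.6-fold lower in knockout (16.7 to 25.8), at a log2 ratio of -4.36, or -2.84 without replicate 16, -3.04 without its pool 5, and 2.22 with umi primers alone. In wild type GFPhi stood 2.04-fold above GFPlo (1.87 to 2.23), at a log2 ratio of 1.03, or -0.49 without replicate 16, -0.54 without pool 5, 2.25 without pool 4 and 0.80 without pool 12. In knockout GFPhi stood 10.9-fold below GFPlo (8.70 to 13.7), at a log2 ratio of -3.44, or -2.29 without pool 11, -1.79 without leukocyte-marked cells and -0.22 on the first date. Between knockout and wild-type GFPlo cells its log2 ratio was 0.10 over all cells and -1.89 without leukocyte-marked ones, where 395 CPM in WT_GFPlo and 107 in KO_GFPlo made it 3.71-fold lower (3.04 to 4.55). In that setting WT_GFPlo replicate 9 held 417 of the 666 Ccl5 counts of its group.

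Ccl2 and Ccl7 are neighbouring genes for monocyte attractants on chromosome 11. Without thinning, 5 of the 6 cells with Ccl7 also had Ccl2, against 14.4% of the rest. Of the 33 cells with Ccl2, the same 5 had Ccl7. Ccl2 (82035571 to 82037453, plus strand) stood at 309 CPM (290 to 328) in WT_GFPhi, 9.73 (6.10 to 14.7) in WT_GFPlo, 48.8 (41.2 to 57.4) in KO_GFPhi and 23.8 (17.3 to 32) in KO_GFPlo, in 13, 4, 8 and 8 cells. WT_GFPhi replicate 38, a leukocyte-marked cell, held 581 of its 1283 counts. The log2 ratio in knockout against wild-type GFPhi cells was -2.66, or -1.55 without that cell, -1.54 without its pool 9, -3.57 without pool 11 and 0.22 with ls primers alone. In wild type Ccl2 was 31.7-fold higher in GFPhi than in GFPlo cells (20.8 to 50.8), at a log2 ratio of 4.95, or 3.85 without replicate 38, 3.83 without pool 9 and 7.29 without pool 11. The ratios of 1.28 in knockout against wild-type GFPlo cells and 1.02 in knockout GFPhi against GFPlo cells, both log2, turned to -0.14 and -0.21 without the leading cell, and the second was 0.53 without leukocyte-marked cells.
In GFPlo the value of 1.28 was -0.18 without pool 1 and 4.10 without pool 11. In knockout the value of 1.02 was 2.45 without pool 1, between 0.60 and 0.99 without pools 2, 3, 5, 7 or 10, and -0.37 without pool 11.

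Ccl9 and Ccl6, neighbours on chromosome 11 and ligands of Ccr1, were highest in WT_GFPlo. Ccl9 (83572919 to 83578636, minus strand) stood at 43.5 CPM (36.9 to 51.1) in WT_GFPhi, 261 (241 to 283) in WT_GFPlo, 14.6 (10.6 to 19.6) in KO_GFPhi and 7.04 (3.75 to 12) in KO_GFPlo. Ccl6 (83587882 to 83593087, minus strand) had 109 of its 115 counts in 2 WT_GFPlo cells, replicates 38 and 32, which also held 231 and 211 of the 799 Ccl9 counts. The same 2 cells were next after WT_GFPhi replicate 60 for Ccl20. Ccl9 was lower in knockout on each date, 2.98-fold in GFPhi (2.12 to 4.27) and 37.1-fold in GFPlo (21.6 to 70.2). Its log2 ratio in GFPhi of -1.56 was -0.79 without the leading cell and -0.84 without pool 12, and that in GFPlo of -5.16 was -4.47 without the leading cell. In wild type it was 6.0-fold lower in GFPhi than in GFPlo (5.01 to 7.23), at a log2 ratio of -2.58, or -1.89 without the leading cell. In knockout its log2 ratio of 1.02 was 0.86 without the leading cell, 0.52 without leukocyte-marked cells and between 0.82 and 0.98 without pools 3, 4, 6, 9 or 10. The log2 ratios of Ccl6 were -4.68 in knockout against wild-type GFPlo cells and -6.81 in wild-type GFPhi against GFPlo, and -3.64 and -5.77 without the leading cell, with -3.67 and -5.75 without pool 12 and, for the latter, -7.39 without pool 11.

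Ccl11, which attracts eosinophils through Ccr3 (chromosome 11, 82057823 to 82062955, plus strand), had 240 counts in 15 cells, none of them leukocyte-marked and none of the first date. It stood at 7.79 CPM in WT_GFPhi, 69.0 in WT_GFPlo, 0.332 in KO_GFPhi and 30.3 in KO_GFPlo. WT_GFPlo replicate 34 held 142 counts and KO_GFPlo replicate 40 held 43, both in pool 11, and the same cells led for Ccl21a, with 114 and 88 counts. Log2 ratios were -3.99 and -1.18 in knockout against wild type in GFPhi and GFPlo, -3.13 in wild-type GFPhi against GFPlo and -5.94 in knockout. Without the leading cell they were -2.15, 2.2, 0.25 and -3.93, and without pool 11 the first and second were -2.09 and -4.21. The second was -0.86 without leukocyte-marked cells, which add to the totals alone.

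Among ligands made by epithelia, Cxcl16, the Cxcr6 ligand (chromosome 11, 70453983 to 70459984, minus strand), was counted in 116 cells and was lower in the high-GFP gate of both genotypes. It stood at 32 CPM (26.3 to 38.5) in WT_GFPhi, 157 (141 to 174) in WT_GFPlo, 50.8 (43.1 to 59.5) in KO_GFPhi and 294 (270 to 320) in KO_GFPlo. Medians over cells were 0, 30.9, 20.1 and 59.8 CPM, and the highest cells had 423, 1394, 491 and 1974 CPM, with overlap of all groups. It was 4.91-fold lower in GFPhi than in GFPlo cells of wild type (3.95 to 6.13) and 5.80-fold lower in knockout (4.84 to 6.98), on each date. The log2 ratio in wild type was -2.29, or -1.60 without pool 11, and that in knockout -2.53, or -1.67 without pool 11, -1.77 without the leading cell and -1.23 without leukocyte-marked cells. Leukocyte-marked cells held 44% of its counts, and in KO_GFPlo they stood at 584 CPM against 101 in the others.

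Ccl27a, an epithelial ligand of Ccr10 (chromosome 4, 41769467 to 41774247, minus strand), stood at 48.4 CPM (41.4 to 56.3) in WT_GFPhi, 96.4 (84.1 to 110) in WT_GFPlo, 79.0 (69.3 to 89.7) in KO_GFPhi and 9.74 (5.78 to 15.4) in KO_GFPlo; its near-identical copy Ccl27b is listed at 0, so its level is uncertain. In thinned cells 30.9%, 40.6%, 25% and 8.33% of cells had a count in the same order. It was lower in KO_GFPlo on each date, 9.90-fold against WT_GFPlo (6.12 to 17) and 8.11-fold against KO_GFPhi (5.02 to 13.9). The first log2 ratio was -3.27, or -2.40 without the leading cell, -5.01 without pool 1 and -2.31 without pool 4, and the second was 2.98, or 2.50 without the leading cell and 4.73 without pool 1. Cx3cl1, the membrane-bound ligand of Cx3cr1 (chromosome 8, 94772009 to 94782427, plus strand), had 72 counts in 12 WT_GFPhi cells and 39 in 8 WT_GFPlo cells, 4 in KO_GFPhi and 0 in KO_GFPlo. It was 15.6-fold lower in knockout GFPhi cells (5.85 to 58.9) and at least 10.6-fold lower in knockout GFPlo cells, by the limit of 3 counts over the group, and lower on each date. With ls primers alone the log2 ratio in GFPhi was -0.43, against -3.81 over all cells, and 36.5% of Cx3cl1 counts lay in leukocyte-marked cells. Without WT_GFPhi replicate 60, which held 28 counts, it was -3.13. The fitted log2 ratio in GFPlo was -6.01, and -5.27 without WT_GFPlo replicate 24, a leukocyte-marked cell of pool 10 with 16 counts, and -5.17 without that pool. Without leukocyte-marked cells WT_GFPlo had 10 counts of Cx3cl1 (5.94 CPM), 7 of them in 1 cell, and knockout GFPlo cells were at least 2.19-fold lower.

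The other 11 ligands with a count had fewer than 100 counts each. Cxcl14, a ligand made by many epithelia, had 72 counts in 15 cells (48 in WT_GFPhi and 0 in KO_GFPhi), Ccl24 66 in 6 cells (61 in KO_GFPlo), the mucosal Ccr10 ligand Ccl28 48 in 18 cells (38 in WT_GFPhi), Ccl1 38 in 11 cells (28 in WT_GFPlo) and Ccl7 35 in 6 cells (33 in KO_GFPhi). Ccl8 and Ccl3 had 15 counts each in 5 cells, Cxcl17 had 7 in 2 cells and Ccl12 1. Cxcl3 and Cxcl5, described with Cxcl1 and Cxcl2, had 58 and 40 counts.

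The 4 comparisons share groups, since each group enters 2 of them, and are set side by side here. In KO_GFPhi against WT_GFPhi, 15 of 24 ligands with enough counts were lower past 2-fold and 3 (Ccl3, Ccl7 and Ccl21a) higher, against 29.1% of all genes lower and 20% higher. On each of the 2 dates, 9 of 18 were lower (Ccl2, Ccl5, Ccl9, Ccl20, Ccl28, Cx3cl1, Cxcl1, Cxcl2 and Cxcl9) and 0 higher, against 10.8% and 7.87% of all genes. The median log2 ratio of the ligands was -2.22, and -0.13 over all genes. Ccl19, Ccl25, Ccl27a, Cxcl10, Cxcl11 and Cxcl16 were within 2-fold.

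In KO_GFPlo against WT_GFPlo, 12 of 27 ligands were lower and 7 higher, against 27.3% and 23.6% of all genes. On each date 6 of 17 were lower (Ccl9, Ccl20, Ccl25, Ccl27a, Cx3cl1 and Cxcl12) and 2 higher (Ccl22 and Cxcl2), against 10% and 8.77%. The median log2 ratio was -0.29, and -0.05 over all genes. Ccl9, Ccl20 and Cx3cl1 were lower in knockout on each date in both gates.

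In WT_GFPhi against WT_GFPlo, 8 of 26 ligands were higher and 12 lower, against 27.6% and 24.2% of all genes. On each date 5 of 21 were higher (Ccl2, Ccl5, Cxcl1, Cxcl2 and Cxcl9) and 3 lower (Ccl9, Cxcl12 and Cxcl16), against 10.3% and 8.87%. The median log2 ratio was -0.80, and 0.05 over all genes. In KO_GFPhi against KO_GFPlo, 7 of 23 were higher and 11 lower, against 24.3% and 26.1%, and on each date 2 of 14 were higher (Ccl27a and Cxcl10) and 3 lower (Ccl22, Cxcl2 and Cxcl16), against 9.41% and 10.7%. The median log2 ratio was -0.99, and -0.03 over all genes. Over both dates the ligands higher past 2-fold were 30.8% and 30.4% of those counted in these 2 comparisons, near the background.

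**Figure D4:**
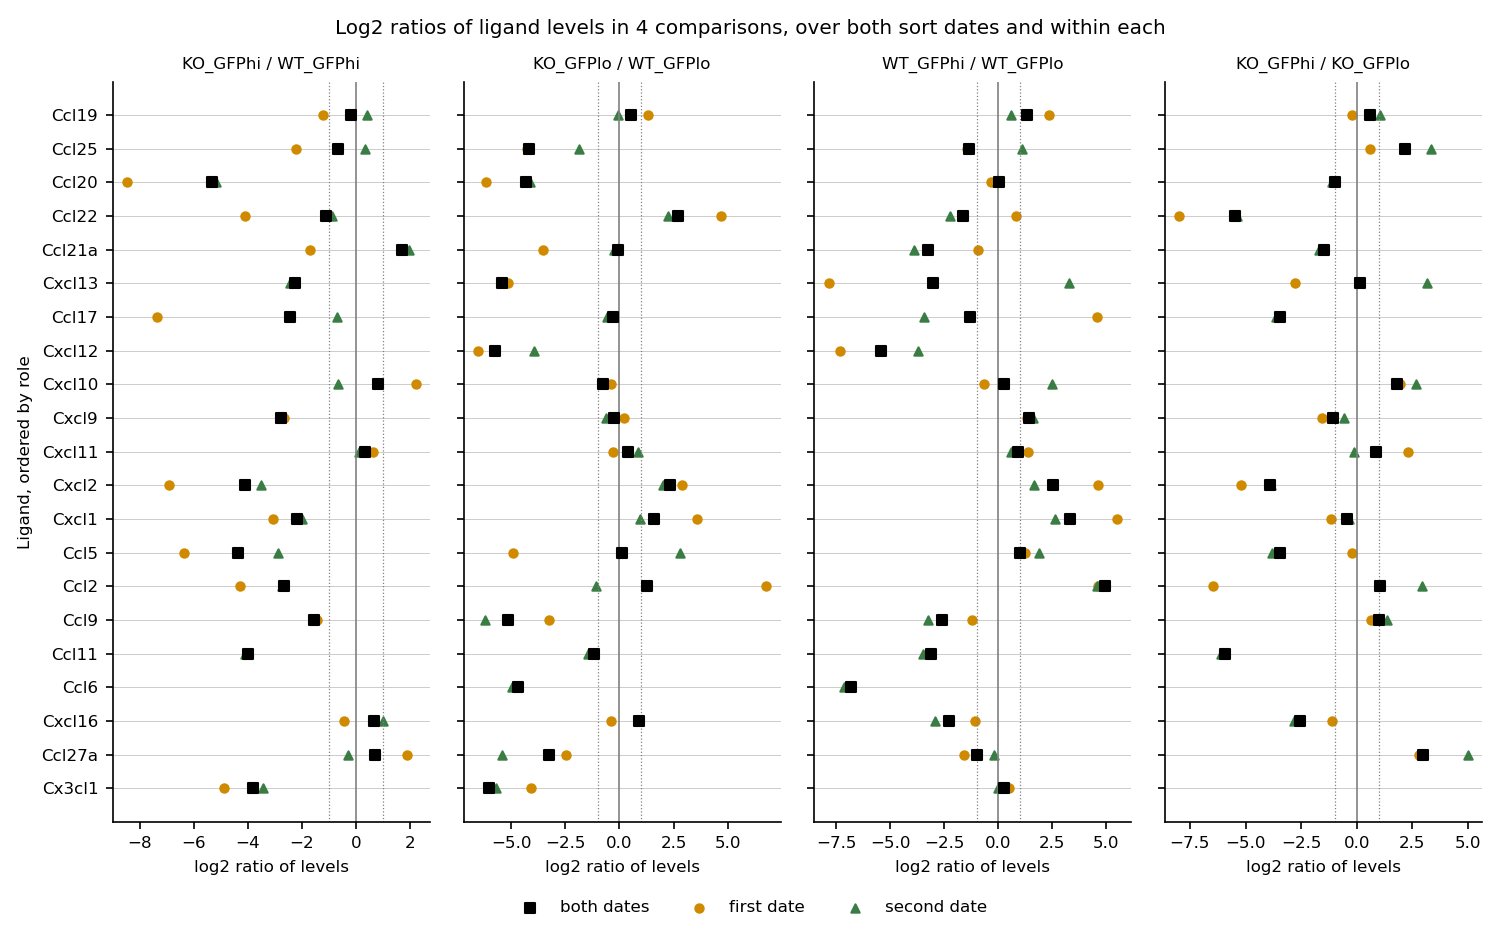
Log2 ratio of levels for the 21 ligands in the 4 comparisons, over both sort dates (squares) and on the first (circles) and second date (triangles); a point is drawn where the pair has at least 10 counts, and dotted lines mark 2-fold. Ccl20 and Cxcl9 lie left of -2 on both dates in KO_GFPhi against WT_GFPhi, while Cxcl10 and Ccl21a lie on opposite sides of 0.

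By role, Cxcr3 ligands summed to 1490 CPM in WT_GFPhi, 983 in WT_GFPlo, 1768 in KO_GFPhi and 665 in KO_GFPlo. Inflammatory CC ligands summed to 980, 710, 111 and 422 CPM, neutrophil-attracting ligands to 312, 54.9, 38.2 and 207, and homeostatic ligands to 2357, 3036, 1544 and 2026, in the same order. The homeostatic role includes Ccl17, Ccl20 and Ccl22, and Ccl22 gave 1726 of its 3743 counts in KO_GFPlo. KO_GFPhi was also the group with fewest leukocyte-marked cells (2 of 48). Without those cells the inflammatory CC sums were 1215, 917, 113 and 252 CPM and the neutrophil-attracting sums 419, 19.6, 39.3 and 108, so that the latter were lowest in WT_GFPlo. In WT_GFPhi the leading cell of each sum then held 52% of the inflammatory CC and 36.5% of the neutrophil-attracting counts. Homeostatic sums were 3105, 3959, 1545 and 1581 CPM in this setting, 2.01-fold lower in knockout GFPhi and 2.50-fold lower in knockout GFPlo cells. The leading cell held 39.4% of the homeostatic counts of WT_GFPlo. Cxcr3 ligand sums were 1758, 1162, 1808 and 996 CPM. Over all cells Ccl20, Ccl5 and Cxcl2 had the lowest log2 ratios in KO_GFPhi against WT_GFPhi among ligands with at least 100 counts. Without leukocyte-marked cells these ligands stood at -5.62, -4.91 and -4.51, and Ccl11 at -4.55.

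**Figure D5:**
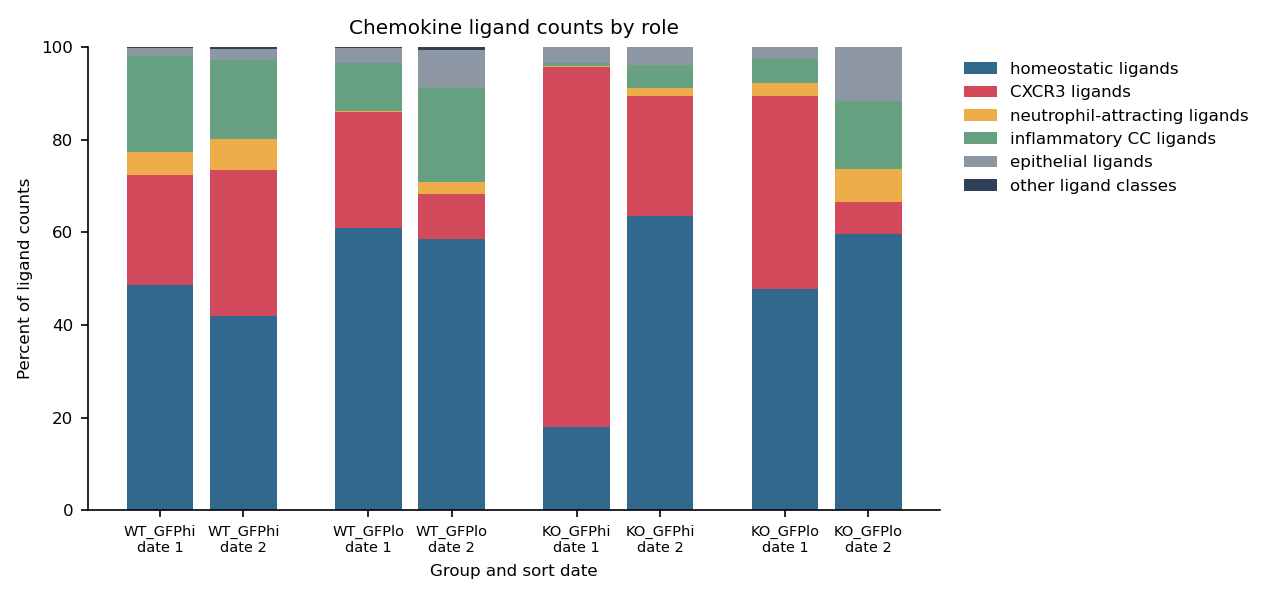
Percent of all chemokine ligand counts by role of the ligand, for each group and sort date (stacked bars that sum to 100). The Cxcr3 ligands take 77.8% in KO_GFPhi cells of the first date and between 6.95% and 41.6% in the other 7 bars.

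Of the 23 receptor genes, 16 had enough counts in KO_GFPhi against WT_GFPhi, with 8 lower and 2 higher (Ccr3 and Ccbp2), and 15 in KO_GFPlo against WT_GFPlo, with 8 higher and 3 lower (Ccr4, Ccr6 and Ccr10). Over all genes 29.1% were lower and 20% higher in the first comparison, and 27.3% lower and 23.6% higher in the second. The receptors' summed level was 339 CPM in WT_GFPhi, 444 in WT_GFPlo, 207 in KO_GFPhi and 834 in KO_GFPlo, and 345, 332, 211 and 301 without leukocyte-marked cells. The ratio of KO_GFPlo to WT_GFPlo was 1.88 (1.73 to 2.04) over all cells and 0.905 (0.788 to 1.04) without leukocyte-marked ones. Ccr7 stood at 39.2, 82.7, 13.9 and 344 CPM in the same order, with 78.9% of its counts in leukocyte-marked cells. Cxcr3, the receptor of Cxcl9 to Cxcl11, had 70 counts in 4 cells, all of them KO_GFPlo, and 98.6% in leukocyte-marked cells. Ccr9, the receptor of Ccl25, had 46 counts in 24 cells. Of the 11 NF-kappaB genes 2 were higher (Rel and Relb) and 0 lower past 2-fold in KO_GFPhi against WT_GFPhi, with sums of 4294 and 3072 CPM, and of 20 interferon-stimulated genes with enough counts 9 were lower and 0 higher, to be read against the 20% and 29.1% of all genes higher and lower in that comparison.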

How the data were processed

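RNA of 200 single cells was copied from the poly(A) end with oligo-dT primers of 2 kinds (ls in 153 cells, umi in 47), amplified by in vitro transcription and ligated to an adapter, per the labels' protocols. The deposited values are whole-number counts per gene and cell, not normalized; the submitters' processing notes name TopHat, TopHat2, Picard 1.79, SAMtools 0.1.19, HTSeq and mm10, with no role or order.

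Counts were summed per group, and per group and sort date, and divided by the sum of all genes. Intervals are exact at 95% (Poisson for levels, binomial for shares and ratios). Shares of cells were also taken after thinning to 10000 counts. Computation used Python 3.11.15, scipy 1.17.1 and, for TMM scaling, edgeR 4.0.16; the code was tested on simulated data. Ligands with at least 100 counts and receptors with at least 50 were named with values; receptors below that are named where they pair with a ligand described. Alternatives were TMM scaling, means per cell, each date or primer kind, each pool, the leading cell or leukocyte-marked cells left out, and other thinning depths. The ligands and lists were chosen with earlier results of these data known.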

Additional observations from a re-analysis of the deposited data

Results flagged for a closer look

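The following log2 ratios had opposite signs in the 2 gates or in the 2 genotypes, each past 2-fold. Each group counted as 1 sample, so the difference between them was not tested, and the pairs share no group. For Ccl2, knockout against wild type gave -2.66 in GFPhi and 1.28 in GFPlo cells, and -1.55 and -0.14 without the leading cell of each pair. For Ccl22, knockout against wild type gave -1.13 in GFPhi and 2.73 in GFPlo cells, and -0.36 and 2.28 without the leading cell of each pair. For Cxcl1, knockout against wild type gave -2.19 in GFPhi and 1.58 in GFPlo cells, and -1.58 and 1.08 without the leading cell of each pair. For Cxcl2, knockout against wild type gave -4.12 in GFPhi and 2.33 in GFPlo cells, and -3.44 and 1.48 without the leading cell of each pair. Without leukocyte-marked cells the GFPlo value of Ccl22 was -1.06, the sign found in GFPhi, but WT_GFPlo replicate 32 then held 286 of the 306 counts of its group. For Ccl5, GFPhi against GFPlo gave 1.03 in wild-type and -3.44 in knockout cells, and -0.49 and -2.96 without the leading cell of each pair. For Ccl9, GFPhi against GFPlo gave -2.58 in wild-type and 1.02 in knockout cells, and -1.89 and 0.86 without the leading cell of each pair. For Ccl25, GFPhi against GFPlo gave -1.35 in wild-type and 2.16 in knockout cells, and 0.83 and 1.58 without the leading cell of each pair. For Cxcl2, GFPhi against GFPlo gave 2.56 in wild-type and -3.89 in knockout cells, and 1.88 and -3.04 without the leading cell of each pair. For Cxcl9, GFPhi against GFPlo gave 1.45 in wild-type and -1.07 in knockout cells, and 1.21 and -0.71 without the leading cell of each pair. Without those cells Ccl2 had the same sign in both gates, and Ccl5 and Ccl25 the same sign in both genotypes.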

How the results depend on the processing

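The summed level of the ligands in KO_GFPhi against WT_GFPhi had a ratio of 0.682, which was 0.629 as a mean of per-cell levels, 0.708 with TMM scaling, 0.545 without leukocyte-marked cells, 0.864 on the first date, 0.60 on the second date, 0.842 with ls primers and 0.37 with umi primers, and 0.596 to 0.75 when 1 library pool was left out. The summed level of the ligands in KO_GFPlo against WT_GFPlo had a ratio of 0.718, which was 0.646 as a mean of per-cell levels, 0.481 without leukocyte-marked cells, 0.49 on the first date, 1.07 on the second date, 0.629 with ls primers and 1.54 with umi primers, and 0.612 to 0.977 when 1 library pool was left out. The summed level of the ligands in WT_GFPhi against WT_GFPlo had a ratio of 1.04, which was 1.0 on the first date, 1.27 on the second date, 0.746 with ls primers and 3.97 with umi primers, and 0.903 to 1.39 when 1 library pool was left out. The summed level of the ligands in KO_GFPhi against KO_GFPlo had a ratio of 0.989, which was 1.07 with TMM scaling, 1.18 without leukocyte-marked cells, 1.76 on the first date, 0.713 on the second date and 0.956 with umi primers, and 0.85 to 1.22 when 1 library pool was left out. The number of ligands past 2-fold, with its range over pools left out, was 18 (17 to 19) in KO_GFPhi against WT_GFPhi, 19 (17 to 21) in KO_GFPlo against WT_GFPlo, 20 (18 to 21) in WT_GFPhi against WT_GFPlo and 18 (15 to 19) in KO_GFPhi against KO_GFPlo. It was 11 on the first date in KO_GFPhi against KO_GFPlo and 11 with umi primers in KO_GFPhi against KO_GFPlo, and within 1.5 times of these counts under the other settings. In KO_GFPhi against WT_GFPhi a log2 ratio changed sign as follows: that of Ccl2 to 0.22 with ls primers, that of Ccl5 to 2.22 with umi primers, that of Ccl21a to -1.69 on the first date, that of Cxcl1 to 1.12 with ls primers. In KO_GFPlo against WT_GFPlo a log2 ratio changed sign as follows: that of Ccl2 to -1.10 on the second date, -0.14 without the leading cell and between -0.18 and 4.10 without 1 pool (opposite without pool 1), that of Ccl6 to 2.70 with umi primers, that of Ccl11 to 2.70 with ls primers and 2.2 without the leading cell, that of Ccl22 to -1.06 without leukocyte-marked cells, that of Cxcl1 to -0.27 as a mean of per-cell levels and -0.072 with umi primers, that of Cxcl2 to -1.21 with umi primers, that of Cxcl12 to 1.96 with umi primers. In WT_GFPhi against WT_GFPlo a log2 ratio changed sign as follows: that of Ccl5 to -3.50 with umi primers, -0.49 without the leading cell and between -0.54 and 2.25 without 1 pool (opposite without pool 5), that of Ccl9 to 3.06 with umi primers, that of Ccl11 to 0.68 with ls primers and 0.25 without the leading cell, that of Ccl17 to 4.57 on the first date, 0.83 with umi primers, 0.48 without the leading cell and between -2.67 and 0.76 without 1 pool (opposite without pool 11), that of Ccl22 to 0.84 on the first date, 4.12 with umi primers, 1.63 without the leading cell and between -1.96 and 0.51 without 1 pool (opposite without pool 11), that of Ccl25 to 1.12 on the second date, 1.06 with umi primers, 0.83 without the leading cell and between -1.91 and 0.60 without 1 pool (opposite without pool 4), that of Cxcl2 to -0.84 with ls primers, that of Cxcl13 to 3.29 on the second date. In KO_GFPhi against KO_GFPlo a log2 ratio changed sign as follows: that of Ccl2 to -0.017 as a mean of per-cell levels, -6.44 on the first date, -0.21 without the leading cell and between -0.37 and 2.45 without 1 pool (opposite without pool 11), that of Ccl21a to 0.89 on the first date, that of Cxcl2 to 3.91 with umi primers, that of Cxcl9 to 1.76 with umi primers. Of the 55 ratios past 2-fold of ligands with at least 100 counts, 32 kept their direction under every setting run. The cause was not tested. No paired analysis was possible because replicate numbers only name cells and pair none across groups. The groups share library pools, and a comparison within pools was not run. Depth limits the ligands under 100 counts and the shares of shallow cells.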
